A study of Mus musculus with 24 samples.

Results

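T cells and natural killer (NK) cells are lymphocytes, and the 10 transcripts described here, Cd3e, Cd3d, Cd3g, Cd2, Lck, Il7r, Gzma, Gzmb, Nkg7 and Ifng, are made mainly by them. They were followed through 24 libraries of sorted splenic monocytes to see which of those libraries carry lymphocyte RNA. The members were selected by gene symbol, and all 10 were found among the 23930 amplicons of the table. The symbols had been picked with the levels in these same libraries known, so their levels, fold changes and calls between genotypes or subsets only describe the members and are not an independent test of them.

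RNA had been taken from Ly6C hi and Ly6C low splenic monocytes (called macrophages in the labels) of C57BL/6 mice of 3 genotypes, for which no treatment is given, with 4 libraries in each of the 6 groups. The genotypes were wild-type (WT), Slc29a3-/-, which lacks a lysosomal nucleoside transporter, and Slc29a3-/- Tlr7-/-, which also lacks the RNA sensor TLR7. Both mutations were made with CRISPR/Cas9, an inserted stop codon in Slc29a3 and a small deletion in Tlr7, whereas the WT mice were bought. Neither age nor sex is given, nor whether each library came from its own mouse, so the spread between libraries may be partly technical. Per the labels, both gates required CD11b and excluded cells with NK1.1, Ly6G or SiglecF. The Ly6C low gate also required FcγRIV, the product of Fcgr4, and by the methods the Ly6C hi gate took cells low in it. Before the sort, magnetic beads had removed cells positive for any of several lineage proteins, CD3 and NK1.1 among them, so T cells and NK cells had been selected against by surface protein.

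The kit amplifies 1 short stretch of each gene, the amplicon, and the deposited value is RPM, reads scaled to the same total in every library. An RPM value can be compared between libraries for 1 gene, but not between genes. The step between low values put the depth at 12311037 to 14572266 reads a library, and 3 reads correspond to 0.206 to 0.244 RPM. Barcodes 11 to 16 belong to WT replicates 1 to 3 of either subset, which were deeper (at least 14237380 reads) than the other 18 libraries (at most 13048399 reads). They also stood apart in Fos, a transcription factor gene induced within minutes of stimulation, at 2446 to 4128 RPM in those 6 libraries. In WT replicate 4, Fos was at 145 RPM in Ly6C hi and 38.9 RPM in Ly6C low cells. All 4 libraries of each mutant group lie outside barcodes 11 to 16, so genotype and barcode group can be told apart only through WT replicate 4, and each comparison of the members with WT is also given with that library alone. Csf1r, the receptor of the monocyte growth factor M-CSF, was read at 436 to 4011 RPM in all 24 libraries, and Fcgr4 at 605 to 3017 RPM in Ly6C low against 25.97 to 62.5 RPM in Ly6C hi libraries. The amplicon of Slc29a3 was read at 127 to 413 RPM in the 8 mutant Ly6C hi libraries and at 163 to 225 RPM in WT. That of Tlr7 was read at 259 to 345 RPM in Ly6C hi Slc29a3-/- Tlr7-/- libraries and at 210 to 336 RPM in WT. The position of these amplicons relative to the mutations was not analysed here, so neither checks the genotype labels.

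The T cell receptor reaches the cell surface only together with the CD3 chains, of which Cd3e, Cd3d and Cd3g encode 3, and it signals through Lck, a tyrosine kinase. Cd2 encodes an adhesion receptor of T and NK cells, and Il7r encodes the receptor chain for interleukin-7, a survival factor of naive and memory T cells. Gzma and Gzmb encode granzymes, proteases that NK cells and cytotoxic T cells release from granules, and Nkg7 encodes a membrane protein of such granules. Ifng encodes interferon-γ, the cytokine through which NK cells and T cells activate macrophages. Mature NK cells lack surface CD3, but cytotoxic T cells share the granzymes, so a ratio of CD3 to granzyme reads describes a mixture without assigning its RNA to either cell type.

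The 3 CD3 genes lie side by side on chromosome 9 within 40056 bases (mm10, 44969572 to 45009627), with Cd3g and Cd3d transcribed away from each other from starts 1354 bases apart. The other members lie on separate chromosomes (mm10): Cd2 on 3 (101275899 to 101287939), Lck on 4 (129548344 to 129573641), Nkg7 on 7 (43437073 to 43438249), Ifng on 10 (118441046 to 118445892), Gzma on 13 (113093825 to 113100981), Gzmb on 14 (56258838 to 56262260) and Il7r on 15 (9505788 to 9530176).

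Since most of these genes moved together across libraries, their promoters were read from RefSeq (GRCm38.p6, 250 bases before to 50 after the start), which held 10 promoters for 9 of the 10 members, Cd2 excepted. The promoters below were chosen to cover a CD3 gene, a granzyme, the interleukin-7 receptor and Ifng, in the 5′ to 3′ direction of the gene. Capitals mark TGTGGT (a RUNX motif), TCACAC (a T-box element, as bound by T-bet and eomesodermin) or TGANTCA (an AP-1 motif), searched on both strands, with overlaps between motifs allowed.
Cd3e (chr9:45009562-45009861, minus strand): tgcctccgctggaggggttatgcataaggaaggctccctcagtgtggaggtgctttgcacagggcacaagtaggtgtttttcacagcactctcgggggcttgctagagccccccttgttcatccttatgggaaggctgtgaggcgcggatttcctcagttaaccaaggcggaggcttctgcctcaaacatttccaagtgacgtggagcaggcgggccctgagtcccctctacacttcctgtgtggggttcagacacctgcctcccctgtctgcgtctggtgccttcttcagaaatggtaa
Gzmb (chr14:56262285-56262584, minus strand): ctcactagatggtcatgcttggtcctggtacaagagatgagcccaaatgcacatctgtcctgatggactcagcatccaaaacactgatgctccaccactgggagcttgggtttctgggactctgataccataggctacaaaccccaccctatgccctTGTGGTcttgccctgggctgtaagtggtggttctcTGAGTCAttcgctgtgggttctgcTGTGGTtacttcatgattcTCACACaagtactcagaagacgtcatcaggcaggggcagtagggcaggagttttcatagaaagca
Il7r (chr15:9529827-9530126, minus strand): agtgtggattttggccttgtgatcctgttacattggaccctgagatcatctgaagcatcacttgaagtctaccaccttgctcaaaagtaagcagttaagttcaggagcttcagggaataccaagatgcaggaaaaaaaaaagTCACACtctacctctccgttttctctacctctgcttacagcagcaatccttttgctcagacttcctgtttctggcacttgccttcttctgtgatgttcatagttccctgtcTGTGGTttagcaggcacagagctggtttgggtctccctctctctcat
Ifng (chr10:118440796-118441095, plus strand): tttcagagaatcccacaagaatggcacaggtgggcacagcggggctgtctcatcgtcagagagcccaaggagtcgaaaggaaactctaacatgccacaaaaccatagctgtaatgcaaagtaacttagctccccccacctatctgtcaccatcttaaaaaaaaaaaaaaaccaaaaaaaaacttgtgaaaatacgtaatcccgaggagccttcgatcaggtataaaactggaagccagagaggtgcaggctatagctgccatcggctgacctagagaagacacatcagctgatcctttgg
Of the 10 promoters, 5 held the RUNX motif (16.8% of all 32851 promoters), 5 the T-box element (14.5%) and 1 the AP-1 motif (7.81%). The Gzmb promoter held 2 RUNX matches and 1 match of each other motif, and those of the CD3 genes and of Ifng held none of the 3 motifs in this window. A match is only a description of the letters.

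Across the 24 libraries, most of the lymphocyte RNA was in 4 Ly6C hi libraries: WT replicates 1 to 3 and Slc29a3-/- Tlr7-/- replicate 1. The 9 members other than Nkg7 summed to 544, 533 and 521 RPM in WT replicates 1 to 3 and to 557 RPM in that Slc29a3-/- Tlr7-/- library. Gzma was the largest part of each sum, at 203, 193, 179 and 326 RPM, so like sums do not mean like amounts of lymphocyte RNA. The next highest sum was 118 RPM, in Ly6C hi WT replicate 4, and the remaining 19 libraries ranged from 5.27 to 94.6 RPM. For 7 of the 10 members these 4 libraries were the 4 highest of the 24. The exceptions were Il7r and Ifng, for which Slc29a3-/- Tlr7-/- replicate 1 was not among them, and Nkg7. In bulk RNA, fewer cells of a type and less RNA per cell cannot be told apart.

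**Figure D1:**
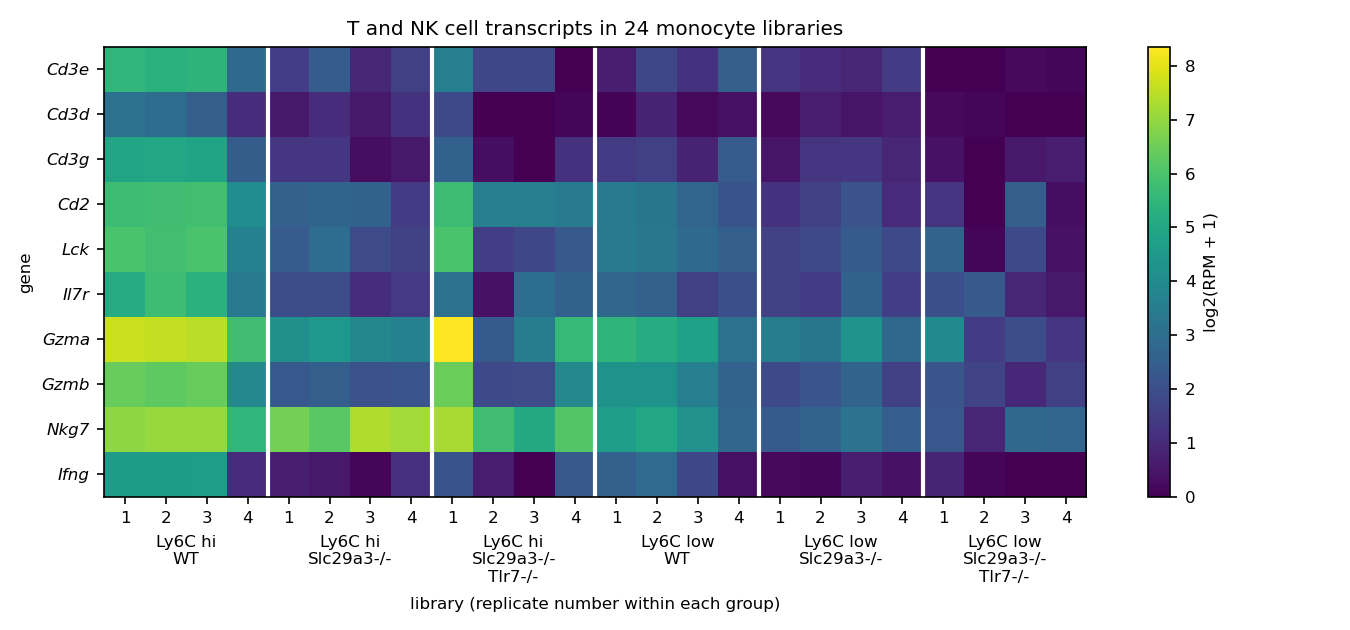
Level of each of the 10 transcripts (rows) as log2(RPM + 1) (color) in each of the 24 libraries (columns, replicate numbers 1 to 4 within the 6 groups). The bright columns are Ly6C hi WT replicates 1 to 3 and Slc29a3-/- Tlr7-/- replicate 1, and Nkg7 is bright in all Ly6C hi libraries.

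Cd3e, the chain that nucleates the CD3 complex, was at 44.5, 39.7, 41.8 and 6.24 RPM in Ly6C hi WT replicates 1 to 4. It was at 1.83, 4.35, 0.872 and 1.99 RPM in Slc29a3-/- and at 11.1, 2.44, 2.53 and 0 RPM in Slc29a3-/- Tlr7-/- Ly6C hi replicates 1 to 4. The WT range lay above the Slc29a3-/- range, and 1 Slc29a3-/- Tlr7-/- library lay above WT replicate 4. In Ly6C low cells Cd3e was at 0.629, 2.47, 1.34 and 4.83 RPM in WT, at 1.43, 1.04, 0.868 and 1.75 RPM in Slc29a3-/- and at 0, 0, 0.158 and 0.08 RPM in Slc29a3-/- Tlr7-/- replicates 1 to 4. WT replicate 4 was thus the highest Ly6C low library for this gene but the lowest Ly6C hi WT library.

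Cd3g, a chain that pairs with CD3ε, followed Cd3e at 30.04, 31.2, 28.4 and 4.52 RPM in Ly6C hi WT replicates 1 to 4. Among the mutant Ly6C hi libraries it reached at most 1.51 RPM in the Slc29a3-/- group and 5.08 RPM in replicate 1 of the Slc29a3-/- Tlr7-/- group. In Ly6C low cells it was highest in WT replicate 4 at 4.29 RPM, above the 0 to 1.99 RPM of the other 11 libraries. Cd3d, whose amplicon gave the fewest reads of the 3, was at 7.77, 6.66, 4.76 and 1.09 RPM in Ly6C hi WT replicates 1 to 4 and at 2.70 RPM in Slc29a3-/- Tlr7-/- replicate 1. No other library exceeded 1.35 RPM, and no Ly6C low library reached 1 RPM.

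Lck, the kinase that starts T cell receptor signaling and that NK cells also use, was at 62.7, 55.6, 62.9 and 11.6 RPM in Ly6C hi WT replicates 1 to 4. In Slc29a3-/- Tlr7-/- replicate 1 it was at 62.2 RPM, whereas replicates 2 to 4 were at 1.87, 2.46 and 4.01 RPM and the Slc29a3-/- libraries at 4.22, 6.88, 2.78 and 2.07 RPM. Unlike the CD3 genes, Lck was thus as high in that 1 mutant library as in WT replicates 1 to 3. Ly6C low cells had Lck at 10.1, 8.72, 6.18 and 4.75 RPM in WT against 0.079 to 5.25 RPM in the 8 mutant libraries.

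Cd2 was at 53.1, 54.1, 56.0 and 15.8 RPM in Ly6C hi WT replicates 1 to 4 and at 51.5 RPM in Slc29a3-/- Tlr7-/- replicate 1. Replicates 2 to 4 of Slc29a3-/- Tlr7-/- stayed at 10.9, 10.9 and 9.86 RPM, and Slc29a3-/- libraries were at 4.94, 5.46, 4.995 and 1.75 RPM. The 2 mutant groups did not overlap, and WT replicate 4 lay between the mutant libraries at 9.86 to 10.9 RPM and WT replicates 1 to 3. Siglech, a surface receptor of plasmacytoid dendritic cells, did not overlap between the mutant groups either, at 16.4 to 18.5 RPM in Slc29a3-/- Tlr7-/- and 1.265 to 3.503 RPM in Slc29a3-/- Ly6C hi libraries. In WT replicate 4 it was at 13.65 RPM, below all Slc29a3-/- Tlr7-/- libraries, and replicate 1 of that group did not stand apart. All 7 genes of a plasmacytoid dendritic cell list were in the table and summed to 222 to 312 RPM against 80.1 to 165 RPM. Their part in the Cd2 values was not tested.

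Il7r was at 34.8, 53.4, 39.5 and 9.36 RPM in Ly6C hi WT replicates 1 to 4. It did not rise above 7.86 RPM in any Slc29a3-/- Tlr7-/- or 2.95 RPM in any Slc29a3-/- Ly6C hi library, so WT did not overlap with either. Among Ly6C low libraries it was at 1.97 to 5.73 RPM in WT and 0.479 to 5.05 RPM in the mutants.

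Gzma was at 203, 193, 179 and 54.2 RPM in Ly6C hi WT replicates 1 to 4. It was highest of all libraries in Slc29a3-/- Tlr7-/- replicate 1, at 326 RPM, against 4.14, 10.6 and 46.9 RPM in replicates 2 to 4, and was at 17.4, 20.7, 13.96 and 11.7 RPM in Slc29a3-/-. Among Ly6C low libraries, Gzma was at 43.5, 34.9, 26.8 and 7.59 RPM in WT replicates 1 to 4, at 6.04 to 18.3 RPM in Slc29a3-/- and at 1.52 to 14.7 RPM in Slc29a3-/- Tlr7-/- libraries. In both subsets, WT replicate 4 lay below WT replicates 1 to 3.

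Gzmb was likewise highest in Slc29a3-/- Tlr7-/- replicate 1, at 87.1 RPM, and was at 84.7, 76.7, 83.9 and 14.3 RPM in Ly6C hi WT replicates 1 to 4. Replicates 2 to 4 of Slc29a3-/- Tlr7-/- were at 2.60, 2.85 and 14.4 RPM and Slc29a3-/- Ly6C hi libraries at 3.17 to 4.74 RPM. Its Ly6C low levels were 17.96, 18.6, 11.2 and 5.14 RPM in WT and 0.947 to 5.36 RPM in the mutants. Siglech, a gene of plasmacytoid dendritic cells, was at 16.4 to 18.5 RPM in the Slc29a3-/- Tlr7-/- Ly6C hi libraries, where Gzmb spanned 2.60 to 87.1 RPM. The part of these cells in the Gzmb values was not tested.

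Nkg7 did not follow the other members in the Slc29a3-/- Ly6C hi libraries, so its label as a lymphocyte transcript was not matched by its levels there. In Ly6C hi cells it was at 122, 132, 133 and 44.2 RPM in WT, at 95.8, 72.6, 162 and 146 RPM in Slc29a3-/- and at 151, 54.8, 31.9 and 68.4 RPM in Slc29a3-/- Tlr7-/- replicates 1 to 4. The Slc29a3-/- libraries, in which the other 9 members summed to 25.7 to 48.2 RPM, were thus within or above the WT range for Nkg7. Its Ly6C low levels were 17.7 to 30.3 RPM in WT replicates 1 to 3 and 0.874 to 8.05 RPM in WT replicate 4 and the mutants. The 11 neutrophil genes of a list summed to 77030 to 142400 RPM in Slc29a3-/- Ly6C hi libraries, to 13730 to 40910 RPM in the other 8 Ly6C hi libraries and to at most 2393 RPM in Ly6C low libraries. Their part in the Nkg7 values was not tested.

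**Figure D2:**
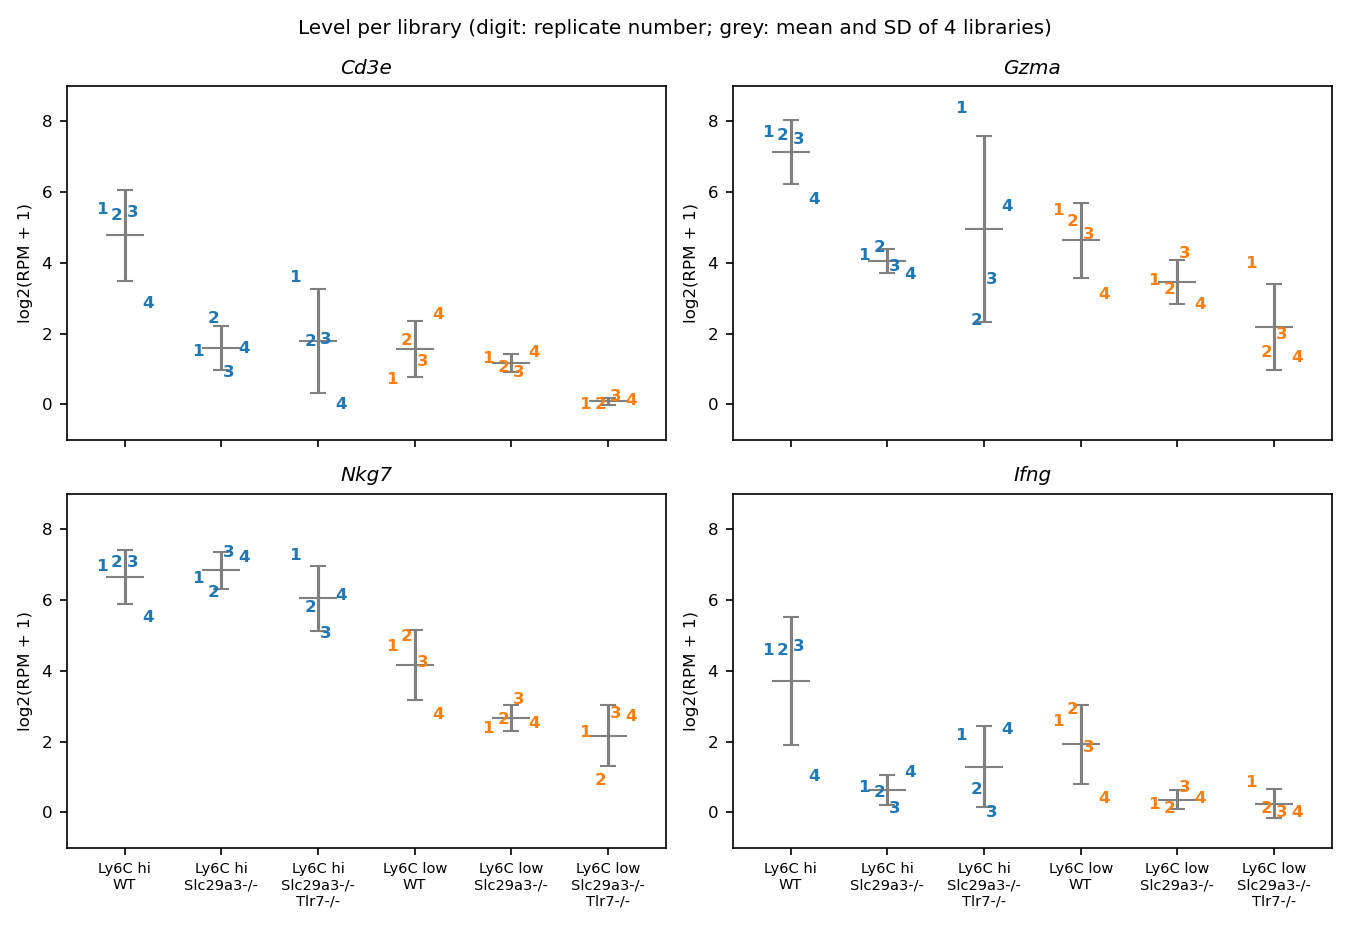
Levels of Cd3e, Gzma, Nkg7 and Ifng as log2(RPM + 1) in each library (blue, Ly6C hi; orange, Ly6C low; each digit is a replicate number), with the mean and SD of the 4 libraries of a group in grey. WT replicate 4 lies below WT replicates 1 to 3 in each panel except Cd3e in Ly6C low, and Nkg7 is as high in Slc29a3-/- as in WT Ly6C hi cells.

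Ifng was at 23.0, 22.9, 24.7 and 1.01 RPM in Ly6C hi WT replicates 1 to 4, so the mean of replicates 1 to 3 was 23.2-fold that of replicate 4. For the other 9 members this ratio was between 2.92 (Nkg7) and 6.73 (Cd3e). Ifng was at 0.637, 0.474, 0.079 and 1.19 RPM in Slc29a3-/- and at 3.47, 0.569, 0 and 4.09 RPM in Slc29a3-/- Tlr7-/- Ly6C hi libraries. In Ly6C low cells it was at 4.89, 6.52, 2.53 and 0.307 RPM in WT and did not exceed 0.808 RPM in any mutant library. Ifng was thus at 2.53 to 24.7 RPM in the 6 libraries of barcodes 11 to 16 and at 0 to 4.09 RPM in the other 18, and the 2 of these above 2.53 RPM were Ly6C hi Slc29a3-/- Tlr7-/- libraries. Reads of Ifng per 100 reads of Gzma were 11.3 to 13.8 in Ly6C hi and 9.45 to 18.7 in Ly6C low WT replicates 1 to 3, but 1.87 in Ly6C hi WT replicate 4 (13 reads of Ifng and 695 of Gzma) and 1.06 in Slc29a3-/- Tlr7-/- replicate 1 (45 and 4226). The 95% exact binomial intervals, which cover counting error only, were 0.991 to 3.22 and 0.775 to 1.43. Elsewhere the ratio ran from 0 to 13.7, and it was above 8 only in 3 mutant Ly6C hi libraries with 7 to 51 reads of Ifng. In the 6 libraries with high Fos, Rgs1, a regulator of G protein signaling, was at 275 to 451 RPM and Ccl3, a chemokine, at 362 to 1004 RPM. In the other 18 libraries Rgs1 was at 0.316 to 62.3 RPM and Ccl3 at 2.14 to 281 RPM. The part of this early response in the Ifng values was not tested.

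The 4 libraries with the most lymphocyte RNA did not carry the same mixture. Reads of Cd3e per 100 reads of Gzma were 21.9, 20.6 and 23.4 in Ly6C hi WT replicates 1 to 3 but 3.41 (interval 2.87 to 4.02, 144 and 4226 reads) in Slc29a3-/- Tlr7-/- replicate 1. Relative to the mean of WT replicates 1 to 3, that library held 1.7-fold as much Gzma, 1.07-fold as much Gzmb and 1.03-fold as much Lck. It held 0.264-fold as much Cd3e, 0.17-fold as much Cd3g and 0.185-fold as much Il7r. The members at or above the WT level were thus Gzma, Gzmb, Lck and Nkg7, and those furthest below it were the CD3 genes, Il7r and Ifng. Slc29a3-/- Tlr7-/- replicate 4 gave 0 reads of Cd3e beside 585 of Gzma, and the exact 95% interval of that ratio reaches 0.633 per 100.

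Among other T cell genes with at least 3 RPM in each of WT replicates 1 to 3 (a limit set after the values were seen), 16 of 17 were lower in Slc29a3-/- Tlr7-/- replicate 1 than in all 3, with a median ratio of 0.509. Thy1, a surface protein of T cells, was at 30.6 RPM against 126.5 to 141 RPM, and Cd8a, a coreceptor, at 16.8 RPM against 27.5 to 30.5 RPM. Zap70, a kinase of the T cell receptor pathway, was at 5.85 RPM against 7.77 to 10.01 RPM. Among other NK cell genes, 9 of 16 were higher than in all 3 WT libraries and 4 were lower, with a median ratio of 1.23. Klrb1c, which encodes NK1.1, the protein on which NK cells were excluded, was at 174 RPM against 128.5 to 144 RPM. Ncr1, an activating NK receptor, was at 78.0 RPM against 36.97 to 42.1 RPM, and Prf1, perforin, at 47.4 RPM against 19.4 to 21.4 RPM. Klrd1, a chain of the NKG2 receptors, was within the WT range at 19.3 RPM. These are values of 1 library and have no replicate check.

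**Figure D3:**
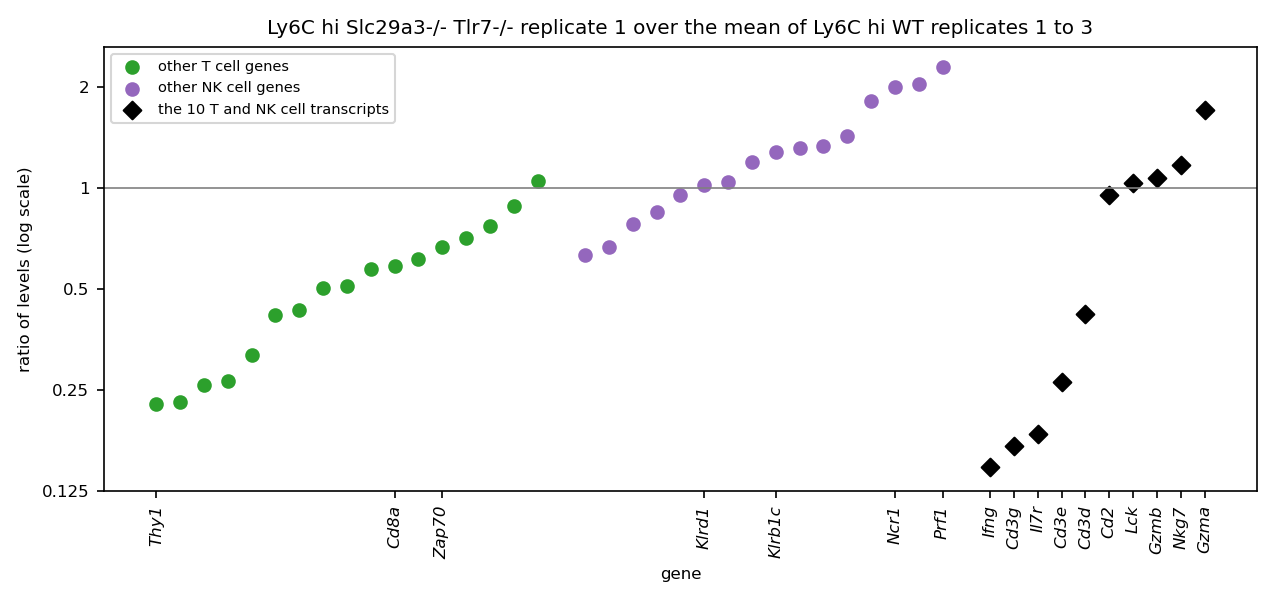
Ratio of the level in Ly6C hi Slc29a3-/- Tlr7-/- replicate 1 to the mean of Ly6C hi WT replicates 1 to 3 (log axis) for 17 other T cell genes, 16 other NK cell genes and the 10 members, with labels for the members and the 7 genes whose levels are given above. T cell genes lie mostly below 1, down to 0.226 for Thy1, and NK cell genes reach 2.29 for Prf1.

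Ly6C low WT libraries also differed from each other in the mixture. Cd3e per 100 reads of Gzma was 1.44, 7.07 and 4.99 in replicates 1 to 3 but 63.6 in replicate 4 (63 and 99 reads, interval 45.6 to 88.2). In replicates 1 to 3, Klrb1c was at 20.9 to 36.97 RPM and Ncr1 at 7.09 to 13.5 RPM, against 5.13 and 3.99 RPM in replicate 4. Replicate 4 thus had the most Cd3e and the least Gzma, Klrb1c and Ncr1 of the 4 libraries. Other genes of T cells were not all high in it. Cd4 was, at 57.6 RPM against 5.70 to 9.64 RPM in replicates 1 to 3, but Thy1 was at 4.83 RPM against 8.71 to 13.2 RPM. Cd2 was at 3.45 RPM against 5.62 to 9.99 RPM, and Lck at 4.75 RPM against 6.18 to 10.1 RPM. Cd4 was also at 18.7 to 39.4 RPM in Ly6C low Slc29a3-/- Tlr7-/- libraries, in which Cd3e did not exceed 0.158 RPM.

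**Figure D4:**
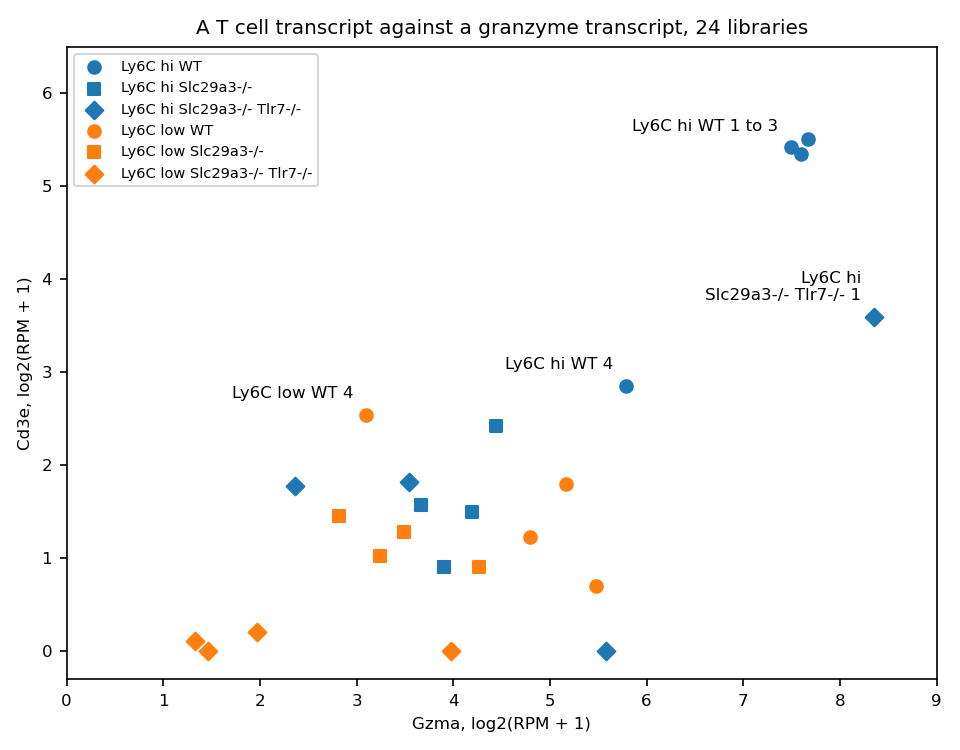
Cd3e against Gzma, both as log2(RPM + 1), in the 24 libraries (color, subset; symbol, genotype). Ly6C hi WT replicates 1 to 3 form the upper right corner, and Slc29a3-/- Tlr7-/- replicate 1 has the highest Gzma but less Cd3e than they have.

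The genes outside the members whose levels were most like those of Gzma across the 24 libraries (Pearson correlation of log2(RPM + 1), 11032 genes compared) were Il2rb (r = 0.974), Mcam (0.965), Klrb1c (0.963), Ncr1 (0.963) and Klra9 (0.955). Without the 4 libraries named above, r was 0.885 to 0.95 for these 5 genes over the other 20. For Cd3e they were Nsg2 (0.926), Cd8b1 (0.918), Dapl1 (0.916), Lef1 (0.902) and Cd28 (0.901), for which r was 0.507 to 0.683 over the 20. For Ifng they were Gem (0.962), Emid1 (0.934), Nt5e (0.929), Xcl1 (0.926) and Ccl2 (0.926), and r was 0.76 to 0.936 over the 20. The libraries share groups, barcodes and depth, so the r values only describe which genes had a like pattern. Among the members, r was 0.728 to 0.951 for the 36 pairs without Nkg7 and 0.436 to 0.751 for the 9 pairs with it. Over the 16 mutant libraries alone, r was lower, at 0.289 to 0.924 (median 0.66 against 0.847) and 0.111 to 0.707.

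For the comparison of genotypes, log2(RPM + 1) of every gene that reached 1 RPM in 4 or more of a subset's 12 libraries was fitted with limma, and a gene was called at an adjusted p under 0.05. The WT libraries are shared between comparisons, and a log2 fold change is on the scale of log2(RPM + 1), which understates changes at low levels. Of 10561 genes tested in Ly6C hi cells, 17.8% were called lower and 10.2% higher in Slc29a3-/- than in WT. Of the members, 9 of 10 were called lower, all but Nkg7, with a median log2 fold change of -3.12 against -0.14 over all genes tested. The changes of the 9 ranged from -3.49 ± 0.81 (SE) for Gzmb to -1.56 ± 0.48 for Cd3d, and Nkg7 was at 0.20 ± 0.43. For 7 of the 10 the groups did not overlap, a count that was not made over all genes and so only describes the members. When WT was represented by replicate 4 alone, whose spread is then assumed to equal that of the other groups, 0.265% of genes were called lower and none of the 10 members was, 1 of them (Cd2) having an unadjusted p under 0.05 in limma. The median of the members was then -1.51, with Ifng at -0.38 ± 0.78 and Nkg7 at 1.34 ± 0.62. WT replicate 4 still lay above all 4 Slc29a3-/- libraries for 7 of the 10 members, also not counted over all genes.

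In Slc29a3-/- Tlr7-/- against WT Ly6C hi cells, 1.15% of genes were called lower and 0.312% higher. Cd3e (-2.98 ± 0.68), Cd3g (-3.30 ± 0.60) and Il7r (-2.62 ± 0.57) were called lower, and the median of the members was -2.32 against -0.06. Gzma was at -2.18 ± 0.90 and Gzmb at -2.21 ± 0.81, neither of them called. The count rested on single libraries. Without Slc29a3-/- Tlr7-/- replicate 1, or without WT replicate 4, 8 members were called, and without any 1 of the other 6 libraries none was. Calls over all genes moved with them, from 154 to 629 and 1162 in the first 2 cases and to between 1 and 5 in the other 6. The median of the members was -3.04 without Slc29a3-/- Tlr7-/- replicate 1 and -2.93 without WT replicate 4. With WT replicate 4 alone, 0.00% of genes and none of the members were called lower (0 at an unadjusted p under 0.05 in limma), with a median of -0.66 over the members. For 7 of the 10 members WT replicate 4 lay above Slc29a3-/- Tlr7-/- replicates 2 to 4, a count that leaves out the high replicate 1. With all libraries of both groups, Il7r was the only member without overlap. Neither count was made over all genes.

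In Slc29a3-/- against Slc29a3-/- Tlr7-/- Ly6C hi cells, a comparison that uses no WT library, 10.3% of genes were called lower and 10% higher. Only Cd2 of the 10 members was called, at -1.75 ± 0.50, and it was not called without Slc29a3-/- replicate 4. The median of the members was -0.67 against -0.12. Without Slc29a3-/- Tlr7-/- replicate 1, that median was 0.28 and 2 members were called, in opposite directions.

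**Figure D5:**
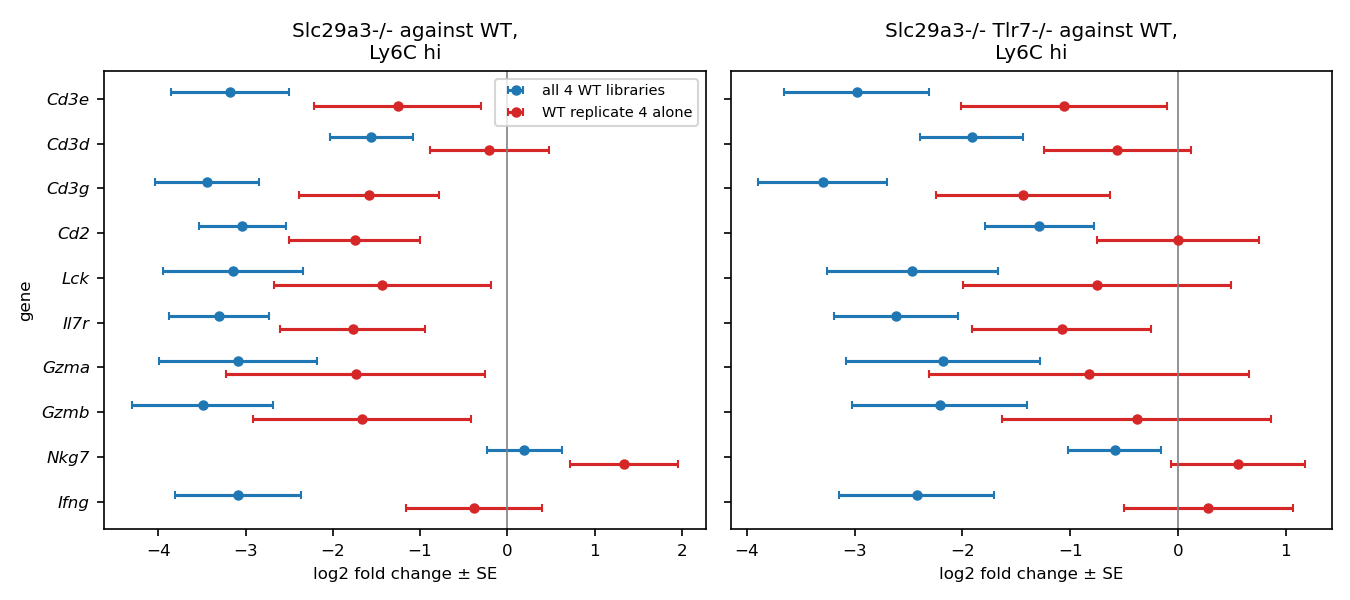
Log2 fold change ± SE of the 10 members in Ly6C hi cells of Slc29a3-/- (left) and Slc29a3-/- Tlr7-/- (right) mice against WT, with all 4 WT libraries (blue) or WT replicate 4 alone (red). With WT replicate 4 alone the values of the 9 members other than Nkg7 lie nearer 0, and Nkg7 lies above 0.

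In Ly6C low cells, 8 of the 10 members passed the filter, Cd3d and Ifng being too low, and 10317 genes were tested. In Slc29a3-/- against WT, 2.63% of genes were called lower and 2.02% higher, and of the members only Gzmb was called, at -1.61 ± 0.38. Leaving out 1 of the 8 libraries gave 3 calls without WT replicate 4, 1 without Slc29a3-/- replicate 3 and none without any of the other 6, while the calls over all genes went from 479 to 1624, 219 and between 199 and 242. In Slc29a3-/- Tlr7-/- against WT, 6.37% were called lower and 2.50% higher, and 7 of the 8 members were called lower, from -2.45 ± 0.58 for Gzma to -1.14 ± 0.32 for Cd3g, Il7r (-0.77 ± 0.41) being the exception. The 7 calls became 1 without WT replicate 2 or without WT replicate 3, 2 without WT replicate 1 and 4 without Slc29a3-/- Tlr7-/- replicate 3. Over all genes the 915 calls became 113, 100, 180 and 304 in these cases. The medians over the members were -1.14 and -1.83, against 0.00 and -0.10 over all genes tested. Against WT replicate 4 alone, 0.178% and 0.00% of genes were called lower and none of the 7 members still tested was (Cd3e had an unadjusted p under 0.05 in limma in both), and the medians were -0.533 and -0.997. In Slc29a3-/- against Slc29a3-/- Tlr7-/-, where 0.708% of genes were called lower and 1.22% higher, none of the 8 members was called. Cd3e and Gzma had an unadjusted p under 0.05 there, at 1.09 ± 0.33 and 1.27 ± 0.58.

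For the comparison of subsets, a fit of all 24 libraries (11042 genes) was used. In WT, 19.1% of genes were called lower and 10.5% higher in Ly6C low than in Ly6C hi cells, and all 10 members were called lower, with a median of -2.47 against -0.07. WT replicates 1 to 3 can be compared within barcodes 11 to 16. All 3 Ly6C hi libraries there lay above all 3 Ly6C low libraries for each of the 10 members, which was not counted over all genes. The ratio of the means there was 28.4 for Cd3e, 20.2 for Cd3g and 19.9 for Cd3d but between 5.06 (Ifng) and 10.1 (Il7r) for the other members. In WT replicate 4 the same ratio was 1.29 for Cd3e and 1.05 for Cd3g but 7.14 for Gzma and 7.68 for Nkg7. In a fit with WT replicate 4 alone, 3.24% of genes were called lower and none of the members was, Nkg7 (-2.74 ± 0.87) having an unadjusted p under 0.05 in limma.

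In Slc29a3-/- mice, 19.1% of genes were called lower and 22.1% higher in Ly6C low cells, and of the members only Nkg7 was called, at -4.17 ± 0.49. In Slc29a3-/- Tlr7-/- mice, 21.4% were called lower and 11.8% higher, and 5 members were called lower: Nkg7 (-3.88 ± 0.49), Cd2 (-3.06 ± 0.53), Gzma (-2.78 ± 0.83), Gzmb (-1.93 ± 0.69) and Cd3e (-1.72 ± 0.57). The medians over the members were -0.33 and -1.69. Without Ly6C hi Slc29a3-/- Tlr7-/- replicate 1, 2 members were called in Slc29a3-/- Tlr7-/- and the median was -0.86. Nkg7 was thus the 1 member called lower in Ly6C low cells in all 3 genotypes.

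Lists of other genes were described beside the members. Of 18 other T cell genes tested in Ly6C hi cells, 17 were called lower in Slc29a3-/- than in WT and Ubash3a, a regulator of T cell receptor signaling, higher (13.99 to 25.6 RPM, log2 fold change 0.81 ± 0.26, adjusted p = 0.0313 in limma). Of 17 other NK cell genes, 16 were called lower. The exception was Cd244 (-0.48 ± 0.23, adjusted p = 0.136 in limma), which was at 191 to 212 RPM in Ly6C hi WT replicates 1 to 3. It was at 386 to 411 RPM in Ly6C low WT replicates 1 to 3. Its mean of 314 RPM over the 20 libraries with less lymphocyte RNA includes all Ly6C low libraries and so mixes the subsets. The change was -3.61 ± 0.69 for Thy1 (adjusted p = 0.00201), -2.89 ± 0.29 for Cd8a (adjusted p = 4.6e-05), -4.11 ± 1.06 for Klrb1c (adjusted p = 0.011) and -3.02 ± 0.63 for Eomes, a transcription factor of NK cells (adjusted p = 0.00341). Against WT replicate 4 alone, Cd8a (-1.92 ± 0.39, adjusted p = 0.0327) and Cd4 (-2.59 ± 0.58, adjusted p = 0.0477) were the only T cell genes still called of 10 tested, and no NK cell gene of 14 was. Plasmacytoid dendritic cells also express Cd4 and Cd8a, and Siglech was called lower as well (-2.13 ± 0.39, adjusted p = 0.0286). Cd5, a T cell surface protein, did not exceed 0.719 RPM in any library. Cd27, Trac, Trbc1, Trbc2 and Cd244a were not analysed here.

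In Slc29a3-/- Tlr7-/- against WT Ly6C hi cells, 5 of 18 T cell genes (Thy1, Cd28, Cd8b1, Tcf7 and Themis) and 1 of 17 NK cell genes (Gzmm) were called lower. Without Slc29a3-/- Tlr7-/- replicate 1 the counts were 13 of 17 and 14 of 17, where 483 of 10467 genes were called lower against 121 of 10561 with it. In Ly6C low cells the called genes were mostly of the NK list: 7 of 17 NK and 1 of 10 T cell genes (Tcf7) were lower in Slc29a3-/-, and 9 of 17 NK and 4 of 10 T cell genes (Thy1, Cd28 and Lat among them) in Slc29a3-/- Tlr7-/-, beside 2.63% and 6.37% of all genes. Against WT replicate 4 alone, no gene of either list was called in Slc29a3-/- Tlr7-/- cells of either subset (in limma, 1 of 10 T and 0 of 14 NK cell genes had an unadjusted p under 0.05 in Ly6C hi and 3 of 8 and 3 of 13 in Ly6C low). In Slc29a3-/- Ly6C low cells the only one called was then Cd4 (-3.68 ± 0.43, adjusted p = 0.0119). Between the subsets in WT, 16 of 18 T cell and 10 of 17 NK cell genes were lower in Ly6C low cells, and Cd244 was higher, beside 19.1% of all genes lower and 10.5% higher. With WT replicate 4 alone, Ubash3a (-2.40 ± 0.56, adjusted p = 0.015) was the 1 gene of both lists still called. Neither list was chosen independently of these libraries.

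Genes upstream of Ifng were those of the interleukin-12 and interleukin-18 receptors and of the factors T-bet (Tbx21), eomesodermin and STAT4. The list also held the kinase gene Tyk2 and the cytokine genes Il12a, Il12b, Il15 and Il18. Tbx21 and Eomes were also in the NK cell list, so the counts of the 2 lists are not separate. Of 11 tested in Ly6C hi cells, 5 were called lower in Slc29a3-/- than in WT: Tbx21 (-2.84 ± 0.69, adjusted p = 0.00775), Eomes, Il12rb2 (-1.85 ± 0.30, adjusted p = 0.000737), Il15 and Il18, where 17.8% of all genes were. Against WT replicate 4 alone none of 10 was called (3 had an unadjusted p under 0.05 in limma), with Tbx21 at -1.46 ± 1.09 and Il12rb2 at -1.40 ± 0.50. Tbx21 was at 17.1 to 22.5 RPM in Ly6C hi WT replicates 1 to 3 and at 28.96 RPM in Slc29a3-/- Tlr7-/- replicate 1, whose Ifng was lower. Il12rb2 was at 33.6 to 56.0 RPM in Ly6C hi and 49.8 to 62.9 RPM in Ly6C low WT libraries, unlike the members, which were lower in Ly6C low. Il18r1 (-1.24 ± 0.57, adjusted p = 0.12) and Stat4 (0.51 ± 0.25, adjusted p = 0.142) were not called, and Il12b did not exceed 4.13 RPM in any library. Of 9 tested in Ly6C low cells, Eomes (-1.25 ± 0.35, adjusted p = 0.042) and Il18r1 (-1.55 ± 0.26, adjusted p = 0.00685) were called lower and Tyk2 (0.66 ± 0.19, adjusted p = 0.0469) higher in Slc29a3-/- Tlr7-/- than in WT. Against WT replicate 4 alone none of 8 was called (2 had an unadjusted p under 0.05 in limma), with Il18r1 at -1.06 ± 0.39.

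Interferon-γ signals through its receptor and JAK kinases to induce guanylate binding proteins, chemokines and MHC class II genes. Of 12 interferon-γ response genes tested in Ly6C hi cells, Gbp4 (-1.48 ± 0.46, adjusted p = 0.0279) was called lower and Psmb9 (0.50 ± 0.14, adjusted p = 0.0152) higher in Slc29a3-/- than in WT, where 17.8% and 10.2% of all genes were. The chemokine genes Cxcl9 (0.47 ± 0.33, adjusted p = 0.308) and Cxcl10 (-0.10 ± 0.23, adjusted p = 0.782), the MHC class II transactivator Ciita (-0.17 ± 0.30, adjusted p = 0.704) and Gbp2 (0.15 ± 0.60, adjusted p = 0.875) were not called. In Slc29a3-/- Tlr7-/- against WT, 3 of the 12 (Gbp3, H2-Ab1 and Psmb9) were called higher. The list summed to 713 to 728 RPM in Ly6C hi WT replicates 1 to 3, the libraries with the most Ifng, and to 671 to 1587 RPM in the other 9. Of 5 receptor and signal genes, Ifngr1 (-0.58 ± 0.16, adjusted p = 0.0133), Jak1 and Irf1 (-0.75 ± 0.19, adjusted p = 0.0105) were called lower in Slc29a3-/- Ly6C hi cells, while Ifngr2 (-0.07 ± 0.21, adjusted p = 0.83) and Jak2 were not. Against WT replicate 4 alone, none of these 12 response or 5 receptor and signal genes was called in Slc29a3-/- or Slc29a3-/- Tlr7-/- Ly6C hi cells (in limma, 2 and 1 response genes and 0 and 0 of the others had an unadjusted p under 0.05). In Slc29a3-/-, Gbp4 was then at -0.37 ± 0.71, Psmb9 at 0.58 ± 0.25, Ifngr1 at -0.54 ± 0.28 and Irf1 at -0.58 ± 0.34. Socs1 and Iigp1 were not analysed here.

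Lists of other cell types the gates could hold were examined as well. The 13 immediate early genes summed to 15070 to 15330 RPM in Ly6C hi and 13790 to 16830 RPM in Ly6C low WT replicates 1 to 3, and to 599 to 8528 RPM elsewhere, and 11 of 12 tested were called lower in Slc29a3-/- than in WT Ly6C hi cells (0 of 11 with WT replicate 4 alone, 1 at an unadjusted p under 0.05 in limma). All 6 plasmacytoid dendritic cell genes tested were lower there as well (2 with WT replicate 4 alone). In Slc29a3-/- against Slc29a3-/- Tlr7-/- Ly6C hi cells, 5 of the 6 plasmacytoid dendritic cell genes and 0 of the 12 immediate early genes were called lower. Of all genes, 10.3% were called lower there. The 8 B cell genes of the table summed to 15.4 to 61.5 RPM in all libraries. The eosinophil gene Prg2 was at 85.8 to 95.5 RPM in Ly6C hi WT replicates 1 to 3 and at most at 58.4 RPM elsewhere. The 6 eosinophil genes summed to 171 to 190 RPM in those replicates and to 54.0 to 109 RPM in the other 9 Ly6C hi libraries. In Ly6C low libraries the 6 genes summed to 161.8 to 456.5 RPM, so Prg2 did not follow its list between the subsets. Mcpt8 and Cpa3, genes of basophils and mast cells, did not exceed 17.3 and 3.57 RPM, and the list of 9 summed to 155 to 266 RPM in Slc29a3-/- against at most 101 RPM in the other Ly6C hi libraries. That sum was mostly Hdc, histidine decarboxylase, at 199.9 ± 52.3 RPM (SD, n = 4) in Slc29a3-/- and 60.6 ± 13.6 RPM in WT, the 1 gene of 7 tested that was called higher, while 4, Mcpt8 and Cpa3 among them, were called lower. The 4 erythroid genes summed to 79.7 to 101 RPM in Ly6C low Slc29a3-/- libraries and to at most 13.7 RPM elsewhere. The 9 monocyte genes summed to 29740 to 63870 RPM in Ly6C hi and 13880 to 31740 RPM in Ly6C low libraries. Their part in the members' values was not tested. Ly6c2, Cd79a, Ighm, Igkc, Ear1 and the globin genes were not analysed here.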

How the data were processed

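RNA of 24 libraries, 4 in each of 6 groups given by the labels, had been amplified with a targeted mouse transcriptome panel and sequenced on an Ion Proton. According to the methods, reads were trimmed with Cutadapt, aligned with STAR to mm10, and counted with HTSeq. The step that made the table is not given in the sources used here. The authors deposited 1 table of RPM values (reads scaled to a fixed total) for 23930 amplicons, in which 0 reads is written as 0.0001. These values were set back to 0, and 27 symbols turned into dates were repaired. Reads were inferred from the step between low values (whole within 0.1 read below 5 RPM) and used only for ratios and their intervals.

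log2(RPM + 1) was analysed with limma 3.58.1 (R 4.3.3, intensity trend, Benjamini-Hochberg adjusted p under 0.05), for genes that reached 1 RPM in 4 or more libraries. Fits used the 12 libraries of a subset for genotypes and all 24 for subsets. The fit was tested on simulated data. Other steps used Python 3.11.15. The genome build mm10 comes from the submitters' processing notes, gene positions from GENCODE and promoters from RefSeq.

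The members and all gene lists were chosen with earlier results of these data known. Genes named beside the members were fixed examples from each list and the 5 genes most correlated with Cd3e, Gzma and Ifng. Other list genes named beside a count, as its called members or its exception, were chosen after their values were seen. Same-numbered Ly6C hi and Ly6C low WT libraries deviated together (r = 0.321, 0.259, 0.263 and 0.619), but for replicates 2 and 3 a library of another number was more alike. Since replicate 4 lay far from the others in both subsets, these r values cannot show that the numbers pair the libraries. A replicate block left the same 10 members called between the WT subsets. WT replicates differed beyond sampling noise, so none was counted as a duplicate. Relative to sampling noise, the median chi-square over genes was 4.44 to 5.16 for pairs among Ly6C hi WT replicates 1 to 3. These were the lowest values of all pairs within a group, against 24.5 to 27.0 for their pairs with replicate 4. Whether replicates 1 to 3 are independent of each other is thus not known. Alternatives were scaling, filter, pseudocount, samples in the fit, the replicate block, and libraries left out. Tests on read counts were not run, since the unit deposited is RPM.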

Additional observations from a re-analysis of the deposited data

Results flagged for a closer look

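In 17 of 60 groups of 4 libraries, 1 library lay far from the other 3, where about 1 in 20 such groups is marked by chance, and the members are not independent of each other. Ly6C hi WT replicate 4 was the low library for 8 members, with Cd3e at 6.24, Cd3g at 4.52, Cd2 at 15.8, Lck at 11.6, Gzma at 54.2, Gzmb at 14.3, Nkg7 at 44.2 and Ifng at 1.01 RPM. Ly6C hi Slc29a3-/- Tlr7-/- replicate 1 was the high library for 5 members, with Cd3d at 2.70, Cd2 at 51.5, Lck at 62.2, Gzma at 326 and Gzmb at 87.1 RPM. The other 4 were Cd2 at 1.75 RPM in Ly6C hi Slc29a3-/- replicate 4, Il7r at 5.05 RPM in Ly6C low Slc29a3-/- replicate 3, and Gzma at 14.7 and Ifng at 0.808 RPM in Ly6C low Slc29a3-/- Tlr7-/- replicate 1.

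The difference between Slc29a3-/- and WT was larger in Ly6C hi than in Ly6C low cells for 3 members by the interaction term in limma, in which 977 of 11042 genes passed an adjusted p under 0.05. The log2 difference of the effects (Ly6C hi minus Ly6C low) was -2.78 ± 0.81 for Cd3e, -2.89 ± 0.72 for Cd3g and -2.88 ± 0.76 for Il7r. When only WT replicate 4 stood for WT, it was 0.12, -0.18 and -1.53. The members were chosen with their levels known, so these values describe them.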

How the results depend on the processing

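The counts of called members rest on few libraries, and low members are limited by reads (3 reads are 0.206 to 0.244 RPM). No called value changed sign, and the cause of the changes below was not tested. With WT replicate 4 alone, 0 members were called in each of the 5 comparisons with WT. Leaving out 1 library gave 7 to 9 calls for Slc29a3-/- against WT and 0 to 8 for Slc29a3-/- Tlr7-/- against WT in Ly6C hi, 0 to 2 between the mutants, 0 to 3 and 1 to 6 for the same comparisons with WT in Ly6C low, 7 to 10 between subsets in WT and 2 to 7 in Slc29a3-/- Tlr7-/-. For Slc29a3-/- Tlr7-/- against WT in Ly6C hi (3 calls), a fold over 1.5 with an unadjusted p under 0.05 gave 9, all 24 libraries 5, no trend 1, and no filter, a mean of 10 RPM or more, only the 2 groups or a pseudocount of 0.1 gave 0. Between the mutants in Ly6C hi (1 call), no filter gave 0. For Slc29a3-/- against WT in Ly6C low (1 call), the fold rule or only the 2 groups gave 4, and no filter, a mean of at least 10 RPM or all 24 libraries 0. For Slc29a3-/- Tlr7-/- against WT in Ly6C low (7 calls), no filter gave 2, a mean of at least 10 RPM 1 (of 1 tested), only the 2 groups 0 (of 6) and all 24 libraries 4. Between the mutants in Ly6C low (0 calls), the fold rule gave 2 and a pseudocount of 0.1 gave 1. Between subsets, a mean of at least 10 RPM gave 5 of 5 in WT, only the 2 groups gave 2 in Slc29a3-/- and 2 in Slc29a3-/- Tlr7-/-, and no filter 3 in the latter. A replicate block gave 9, 2, 1, 1, 6, 0, 10, 1 and 6 calls over the 9 comparisons, and 3 in each mutant when only the 2 groups were fitted, a fit added after the data were seen, as was that without the trend. The correlations did not settle in any genotype whether the numbers pair the libraries. Of 84 member values, 14 moved by more than the replicate SD with a pseudocount of 0.1, and 32 of 44 did with WT replicate 4 alone. Planned tests on recovered read counts were not run, since the deposited unit is RPM.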
